A study of Mus musculus with 3 samples.

Results

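The genes described here belong to transporter families for glucose, lactate and amino acids, with levels measured in NIH3T3, a widely used mouse fibroblast line. Members were all genes whose name follows the pattern Slc1a, Slc2a, Slc7a, Slc16a or Slc38a plus a number. The pattern found 59 genes of 55573 listed, all annotated as protein coding, of which 7 belong to the Slc1 family, 12 to Slc2, 15 to Slc7, 14 to Slc16 and 11 to Slc38. The pattern itself uses no expression value.

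Untreated cells, grown in medium with fetal bovine serum, were measured by UMI-RNAseq in 3 libraries that share 1 condition. In UMI-RNAseq each molecule receives a random tag before amplification, so that PCR copies can be removed. Whether each library had its own culture is not given in the sources used here. The spread between libraries, on which every SD below rests, may thus be technical. The p-values below take the libraries as separate units and, with all ratios in the same direction, do not measure that spread. The study used these libraries as an expression reference for an imaging method, and no group of samples can be compared with another.

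Sugars, lactate and amino acids carry polar or charged groups and cross membranes through carriers. Slc2 proteins let hexoses move down their gradient, and the proton-linked Slc16 proteins move lactate and pyruvate together with a proton. Slc1, Slc7 and Slc38 proteins carry amino acids, and they differ in substrate, in the ions they couple to and in whether they exchange one amino acid for another. Several of them need a partner: the light chains of the Slc7 family pair with the glycoprotein encoded by Slc3a2 or Slc3a1, and the lactate carriers encoded by Slc16a1 and Slc16a3 reach the cell surface with basigin, the product of Bsg.

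The libraries held 13959723 to 14423209 counted fragments each, and the labelled cell type could be checked against its markers. All 10 fibroblast markers had a mean of at least 1 FPKM (counted fragments scaled to a gene of 1 kilobase and a library of 1000000 fragments). That limit was passed by 49.3% of protein-coding genes. The summed levels of these markers were 9812 to 9935 FPKM per library. Their means ran from 2.97 FPKM for S100a4 to 4377 FPKM for Fn1. The extraction label mentions retina, whereas none of 11 retina markers reached 1 FPKM and their summed level was 1.19 to 1.76 FPKM. Markers of astrocytes and neurons also stayed below 1 FPKM in 4 of 4 cases, with Aqp4 at 0.

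Promoter stretches of 6 members are shown to place the carriers that the results turn on beside relatives at low levels. They are Slc2a1, Slc16a1 and Slc38a2, which led their families, Slc7a11, the cystine carrier, and Slc2a2 and Slc16a3, which were below 1 FPKM. Each stretch holds 150 bases that end at the RefSeq transcript start or, where an annotated exon begins earlier, just before that exon. Sequences are from RefSeq on GRCm38.p6 and are written 5′ to 3′ on the strand of the gene. Capitals mark a match to the GC box GGGCGG in Slc2a1, Slc16a1, Slc38a2 and Slc16a3, and to the element TGATGNAA in Slc7a11, each searched on both strands. TGATGNAA is the form of the composite site that pairs of C/EBP and ATF proteins bind.
Slc2a1 (chr4:119108561-119108710, plus strand): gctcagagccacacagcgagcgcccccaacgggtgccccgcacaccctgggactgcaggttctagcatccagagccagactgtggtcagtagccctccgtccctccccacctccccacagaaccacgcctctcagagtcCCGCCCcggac
Slc16a1 (chr3:104638514-104638663, plus strand): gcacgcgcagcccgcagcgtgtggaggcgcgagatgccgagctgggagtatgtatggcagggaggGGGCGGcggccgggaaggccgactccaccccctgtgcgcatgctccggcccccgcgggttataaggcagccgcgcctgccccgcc
Slc38a2 (chr15:96699731-96699880, minus strand): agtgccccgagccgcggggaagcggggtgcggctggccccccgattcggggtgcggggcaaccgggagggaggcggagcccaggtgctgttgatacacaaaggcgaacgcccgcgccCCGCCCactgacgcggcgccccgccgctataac
Slc7a11 (chr3:50443615-50443764, minus strand): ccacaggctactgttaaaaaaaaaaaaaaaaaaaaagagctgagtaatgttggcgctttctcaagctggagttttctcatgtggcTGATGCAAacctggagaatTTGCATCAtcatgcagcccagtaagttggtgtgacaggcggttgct
Slc2a2 (chr3:28697753-28697902, plus strand): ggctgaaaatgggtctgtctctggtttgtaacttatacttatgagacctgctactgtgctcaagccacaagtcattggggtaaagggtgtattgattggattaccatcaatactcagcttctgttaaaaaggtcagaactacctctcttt
Slc16a3 (chr11:120948903-120949052, plus strand): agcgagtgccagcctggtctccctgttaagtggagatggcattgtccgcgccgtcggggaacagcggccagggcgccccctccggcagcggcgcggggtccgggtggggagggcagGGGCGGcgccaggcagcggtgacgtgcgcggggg
The match begins 45 bases before the RefSeq start in Slc2a1, 85 in Slc16a1, 35 in Slc38a2 and 48 in Slc16a3. Slc7a11 holds 2 matches, which begin 66 and 47 bases before its start and face each other on opposite strands. These matches describe the reference sequence, and binding was not measured.

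Across all members, 32 of 59 had a mean of at least 1 FPKM, which is 54.2%. The same limit was passed by 23.2% of all listed genes and by 49.3% of protein-coding genes, so the share of members lies near that of protein-coding genes. The median of the members' mean levels was 1.90 FPKM, beside 0.830 FPKM over protein-coding genes. Levels were spread widely: 5 members had at least 100 FPKM, 7 had at least 50 FPKM, 17 had at least 10 FPKM and 15 lay between 1 and 10 FPKM. Another 15 members were below 1 FPKM but had at least 1 fragment, and 12 were at 0 in all libraries. The 5 highest members, Slc7a5, Slc1a5, Slc7a1, Slc2a1 and Slc38a2, made up 69.2% of the summed FPKM of all members, which was 1658 ± 17.4 FPKM (SD, n = 3). These levels are averages over the RNA of whole cultures, in which fewer cells that express a gene and less RNA per cell cannot be told apart.

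**Figure D1:**
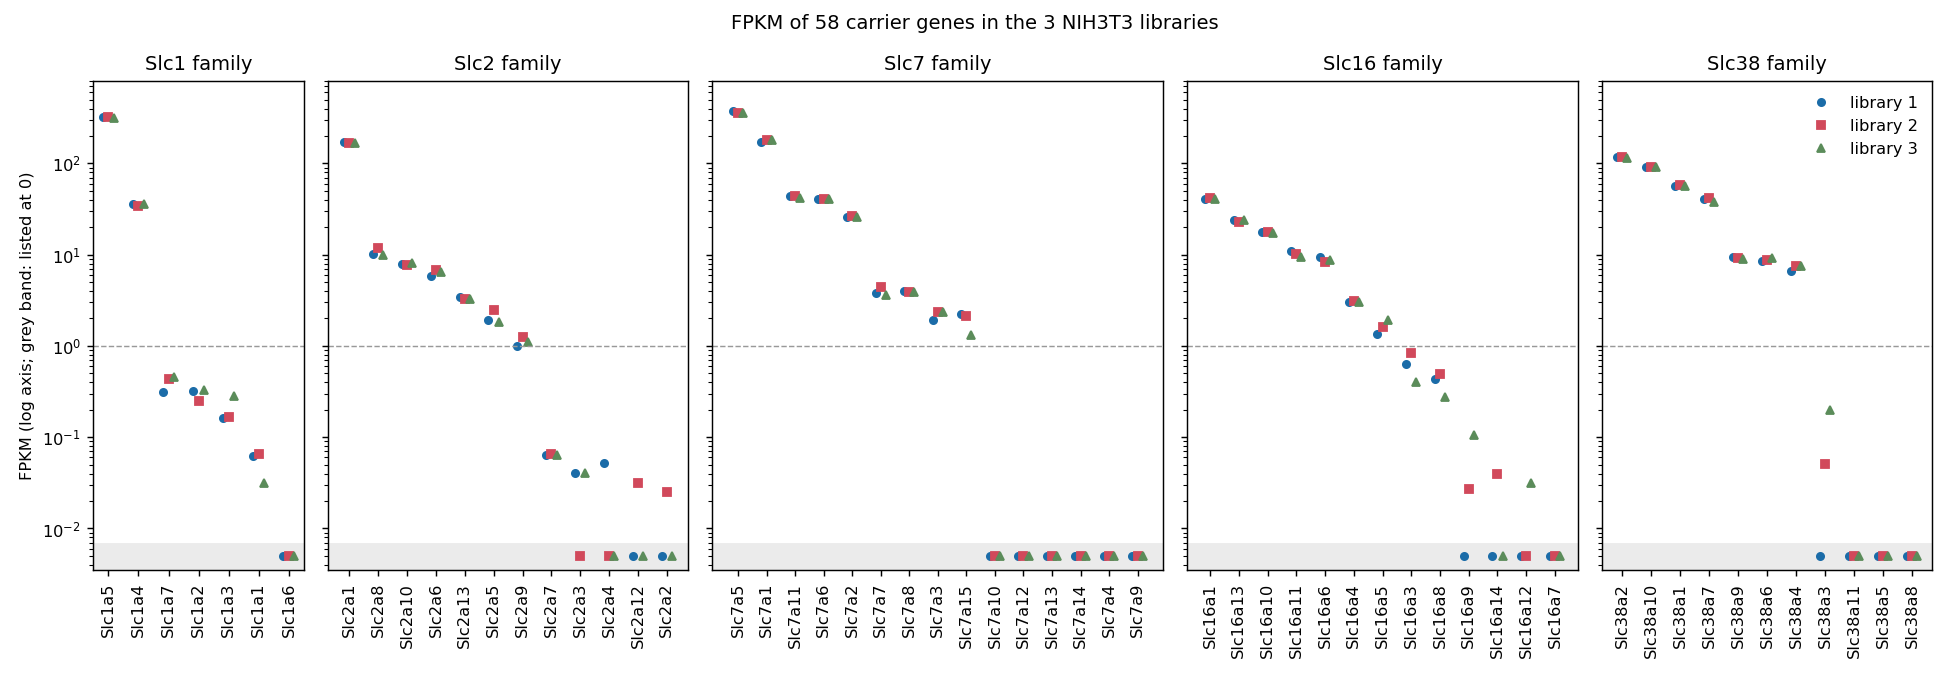
FPKM on a log axis for 58 of the 59 carrier genes, 1 panel per family, with 1 point per library. Slc1a5 and Slc2a1 stand far above the next gene of their families, Slc16 and Slc38 genes step down more evenly, and the 3 libraries lie closest together above the dashed line at 1 FPKM. The grey band holds genes listed at 0.

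Glucose carriers were dominated by Slc2a1. Slc2a1 (ENSMUSG00000028645, chr4:119108711-119137983, plus strand, GRCm38) encodes the basal glucose carrier of most cells. Its level was 171.8 FPKM in library 1, while libraries 2 and 3 had 166.0 and 169.1, a mean of 169 ± 2.89 FPKM (SD, n = 3). The mean was above that of 97.4% of protein-coding genes, and Slc2a1 made up 84.3 ± 0.962% of the summed FPKM of the Slc2 family. The other class I carriers were almost absent. Slc2a3, the high-affinity carrier best known from neurons, had 1 fragment in library 1, 0 in library 2 and 1 in library 3. Slc2a4, the insulin-responsive carrier of muscle and fat, had 1 fragment in library 1 and 0 in the others, and Slc2a2, the carrier of liver and pancreatic beta cells, had 1 fragment in library 2 alone. Slc2a1 therefore made up 99.97 ± 0.0201% of the summed class I FPKM, and over all libraries its FPKM was 6238 times that of Slc2a3, with an exact 95% counting interval of 1727 to 51519.

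Carriers of the other Slc2 classes were present at low levels, without a single dominant gene. Class III summed to 28.2 ± 1.34 FPKM (SD, n = 3), and 4 of its 5 members passed 1 FPKM. Slc2a8, an intracellular hexose carrier, was at 10.1 FPKM in library 1, 11.9 in library 2 and 9.91 in library 3, and made up 37.6 ± 2.16% of the class. Slc2a10 followed at 7.88, 7.78 and 8.13 FPKM in libraries 1, 2 and 3. The lowest library of Slc2a8 was above the highest of Slc2a10. With the longest isoform the order turned and the ranges overlapped, at 4.35 ± 0.448 FPKM for Slc2a8 and 4.39 ± 0.0982 FPKM for Slc2a10. Slc2a6, a lysosomal member, averaged 6.31 ± 0.464 FPKM, and Slc2a13, the proton-coupled myo-inositol carrier, 3.33 ± 0.0695 FPKM (SD, n = 3). Slc2a12 had a single fragment in all. Class II summed to 3.25 ± 0.459 FPKM. Slc2a5, the fructose carrier, led it at 1.91, 2.47 and 1.82 FPKM in libraries 1, 2 and 3, whereas Slc2a9, known as a urate carrier, was at 0.996, 1.24 and 1.11 FPKM. The third class II member, Slc2a7, had 1 fragment in each library.

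Lactate and pyruvate carriers of the proton-linked kind were represented by Slc16a1. Slc16a1 (ENSMUSG00000032902, chr3:104638668-104658462, plus strand) was at 40.6, 42.2 and 40.4 FPKM in libraries 1, 2 and 3, a mean of 41.0 ± 0.997 FPKM (SD, n = 3). It made up 97.6 ± 0.696% of the summed FPKM of the 4 proton-linked carriers. Slc16a3, the carrier typical of glycolytic cells that export lactate, was at 0.628, 0.834 and 0.407 FPKM in libraries 1, 2 and 3, based on 14, 18 and 9 fragments. Every library of Slc16a3 was below 1 FPKM, and Slc16a1 was 71.5 ± 25.0 times higher, or 200.4 ± 70.2 times with the longest isoform. Slc16a8, known from the retinal pigment epithelium, averaged 0.402 ± 0.110 FPKM. Slc16a7 was at 0 in all libraries, which allows a level of up to 0.0220 FPKM for a floor of 3 fragments over the libraries.

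The remaining Slc16 genes summed to 64.9 ± 1.52 FPKM, beside 42.1 ± 1.28 FPKM for the proton-linked carriers (SD, n = 3), and 6 of 10 passed 1 FPKM. This order depended on gene length: with fragments divided by the longest isoform the sums were 29.1 ± 0.640 and 41.7 ± 1.15 FPKM. Slc16a13 led them at 24.2 FPKM in library 1, 22.6 in library 2 and 23.8 in library 3. Slc16a10, which carries aromatic amino acids, was at 17.7, 17.8 and 17.3 FPKM, and Slc16a11 at 11.0, 10.1 and 9.53 FPKM. The ranges of these 3 genes did not overlap. Slc16a6 averaged 8.84 ± 0.458 FPKM, Slc16a4 3.04 ± 0.0600 and Slc16a5 1.63 ± 0.288. Slc16a9, Slc16a12 and Slc16a14 missed 1 FPKM and rested on at most 5 fragments in all. Slc16a1 made up 38.4 ± 0.946% of the summed Slc16 FPKM as deposited and 58.0% with the longest isoform.

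In the Slc1 family the neutral amino acid exchangers were high and the glutamate carriers were low. Slc1a5 (ENSMUSG00000001918, chr7:16781340-16798274, plus strand) encodes an exchanger through which many dividing cells take up glutamine. It was at 326.0, 320.8 and 317.1 FPKM in libraries 1, 2 and 3, and made up 89.9 ± 0.235% of the summed family FPKM (SD, n = 3). Slc1a4, its relative for alanine, serine and cysteine, was at 35.7, 34.2 and 35.5 FPKM. The lowest library of Slc1a5 was far above the highest of Slc1a4, and the ratio was 9.14 ± 0.220, or 3.78 ± 0.0908 with the longest isoform. All 5 carriers of acidic amino acids were below 1 FPKM, and together they came to 0.959 ± 0.124 FPKM. Slc1a7 had the highest mean among them, with 0.312, 0.439 and 0.457 FPKM in libraries 1, 2 and 3. Slc1a2 and Slc1a3 are the glutamate carriers of astrocytes. Slc1a2 was at 0.322, 0.250 and 0.325 FPKM, overlapping Slc1a7, and Slc1a3 averaged 0.204 ± 0.0695 FPKM. Slc1a1, the more widely expressed glutamate carrier, rested on 2, 2 and 1 fragments, and Slc1a6 was at 0.

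The Slc7 family had the largest sum, 662 ± 9.11 FPKM (SD, n = 3), or 39.9% of all members. Its light chains summed to 456 ± 13.1 FPKM and were led by Slc7a5 (ENSMUSG00000040010, chr8:121881150-121907694, minus strand), which encodes the light chain that exchanges leucine and other large neutral amino acids. Slc7a5 was at 377.8, 354.3 and 357.3 FPKM in libraries 1, 2 and 3, the highest level of any member, and ranked 234 among all listed genes. It made up 79.5 ± 0.628% of the summed light chains. Slc7a11, the cystine-glutamate exchanger, was at 43.4, 43.6 and 41.8 FPKM, and Slc7a6, which exchanges cationic for neutral amino acids, at 40.4, 40.9 and 40.6 FPKM. Slc7a8, the second light chain for large neutral amino acids, was at 3.98, 3.86 and 3.90 FPKM, so Slc7a5 was 92.8 ± 1.86 times higher, or 49.6 ± 0.992 times with the longest isoform. Slc7a7 averaged 3.95 ± 0.455 FPKM, a range that overlapped that of Slc7a8. With the longest isoform they were at 1.95 ± 0.225 and 2.99 ± 0.0468 FPKM and did not overlap. Slc7a15 averaged 1.90 ± 0.504 FPKM. The other 4 light chains, Slc7a9, Slc7a10, Slc7a12 and Slc7a13, were at 0 in every library.

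Cationic amino acid carriers summed to 206 ± 4.08 FPKM (SD, n = 3) and were led by Slc7a1, through which most cells take up arginine and lysine. Slc7a1 (ENSMUSG00000041313, chr5:148327410-148399904, minus strand) was at 172.9 FPKM in library 1 and at 179.4 and 179.3 in libraries 2 and 3, and made up 86.2 ± 0.177% of the group. Slc7a2, a relative known to be inducible, was at 26.1, 26.6 and 25.9 FPKM, and the ratio of Slc7a1 to it was 6.75 ± 0.149, or 3.89 ± 0.0861 with the longest isoform. Slc7a3 was low at 2.22 ± 0.246 FPKM. The related Slc7a4 and Slc7a14 were at 0, which allows up to 0.0464 and 0.0117 FPKM.

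The Slc38 family, sodium-coupled carriers of glutamine and other small neutral amino acids, had the lowest share for its leading gene, on the FPKM as deposited. Slc38a2 (ENSMUSG00000022462, chr15:96687392-96699730, minus strand), the system A carrier that adapts to amino acid supply, was at 118.2 FPKM in library 1, 118.2 in library 2 and 116.1 in library 3. It made up 35.5 ± 0.240% of the summed family FPKM (SD, n = 3) and 64.6 ± 0.504% of system A. Slc38a1, the other widely expressed system A gene, was at 56.7, 58.7 and 56.1 FPKM, and Slc38a4 averaged 7.23 ± 0.533 FPKM. Slc38a2 was 2.06 ± 0.0359 times Slc38a1, or 3.14 ± 0.0549 times with the longest isoform. The system N carriers, known from liver and astrocytes, were almost absent: Slc38a3 had 0, 1 and 4 fragments in libraries 1, 2 and 3, and Slc38a5 had none.

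Other Slc38 genes came to 149 ± 2.30 FPKM (SD, n = 3), beside a system A sum of 182 ± 2.38 FPKM. With the longest isoform these sums were 59.9 ± 1.10 and 141 ± 1.69 FPKM. Slc38a10 was at 91.2, 92.0 and 90.6 FPKM in libraries 1, 2 and 3, and Slc38a7, a lysosomal glutamine carrier, at 40.6, 41.3 and 38.2 FPKM. Slc38a9, a lysosomal arginine sensor that acts on mTOR signalling, averaged 9.19 ± 0.237 FPKM, and Slc38a6 8.84 ± 0.268 FPKM. Slc38a9 and Slc38a6 overlapped in range, far below Slc38a7. Slc38a8 and Slc38a11 were at 0 in all libraries.

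**Figure D2:**
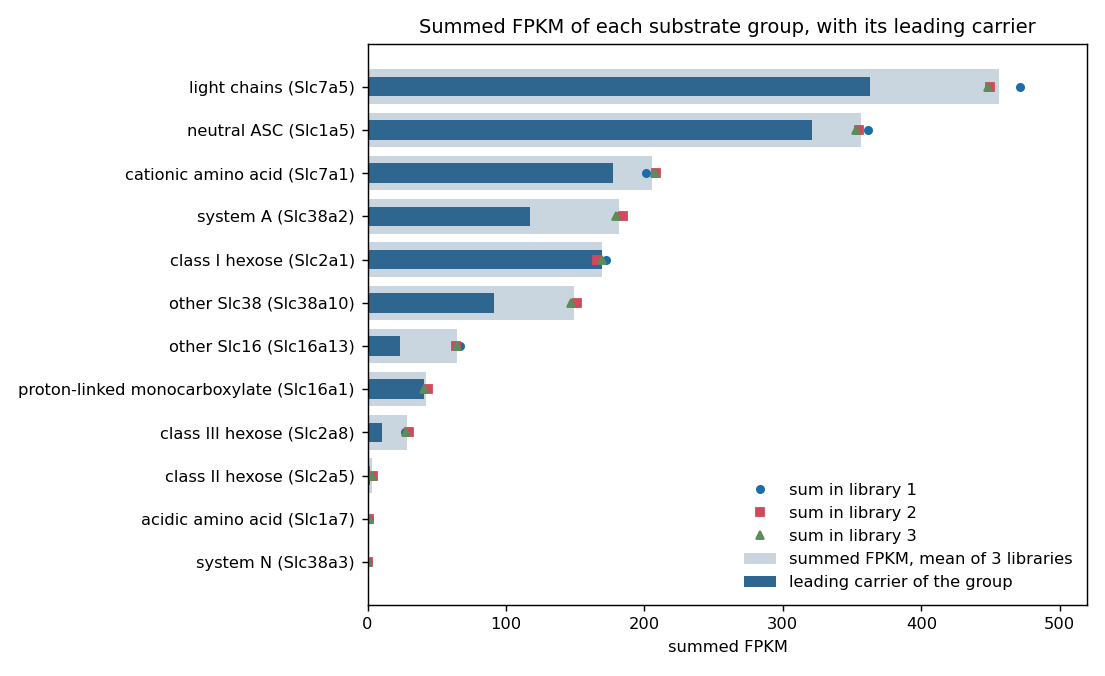
Summed FPKM of each of the 12 substrate groups (pale bars, mean of 3 libraries; points, each library) with its leading carrier in the dark bar and in brackets. Light chains reach 456 FPKM and class I hexose carriers 169 FPKM, nearly all of it Slc2a1, whereas the mean sums of the system N and acidic amino acid groups are 0.0823 and 0.959 FPKM.

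Summed by family, the amino acid carrier families Slc1, Slc7 and Slc38 were 6.74 ± 0.0427 times Slc2 (SD, n = 3, FPKM ratio within each library). With the longest isoform the ratio was 6.97 ± 0.0514. The Slc2 sum includes Slc2a9 and Slc2a13, known for urate and myo-inositol, and Slc16a10 is in neither sum. Such sums of FPKM depend on the gene lengths used and take no account of how fast each carrier works. Among the 31 neighbouring pairs in the order of members at 1 FPKM or more, 11 had overlapping ranges over the libraries. The first 7 places, from Slc7a5 to Slc38a1, had no overlap with their neighbours. Slc7a11, Slc16a1, Slc7a6 and Slc38a7, the next 4, lay between 40.1 and 42.9 FPKM on average, and each overlapped the next. With the longest isoform these genes were at 16.7, 41.0, 18.2 and 22.3 FPKM, in that order, and their ranges did not overlap.

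For 6 pairs of related carriers the level of the higher gene was compared within libraries. The higher gene was the same in 3 of 3 libraries in each pair. The log2 ratio was 6.10 ± 0.49 for Slc16a1 over Slc16a3, 6.54 ± 0.03 for Slc7a5 over Slc7a8 and 3.19 ± 0.03 for Slc1a5 over Slc1a4 (SD, n = 3). It was 2.76 ± 0.03 for Slc7a1 over Slc7a2 and 1.04 ± 0.03 for Slc38a2 over Slc38a1. Flipping the signs of the library ratios, an exact two-sided permutation test, gave p = 0.25 in each of these 5 pairs, also after Benjamini-Hochberg adjustment over them, which is the smallest value that 3 libraries allow. The design thus cannot reach the usual threshold. The pairs were chosen with earlier results of these data known, so their direction is a description. For Slc2a1 and Slc2a3 no log2 ratio exists in library 2, where Slc2a3 was at 0, and with a pseudocount of 1 or 0.1 the same exact permutation test also gave p = 0.25.

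The deposited FPKM divides by the mean length of a gene's annotated isoforms, and that choice weighs on levels compared between genes. Slc7a5, for example, has 3 annotated isoforms with a mean of 1436 bases, whereas the longest has 3517. Dividing the recovered fragments by the longest isoform lowered 14 of the 17 members at 10 FPKM or more by at least 1.5 times. Slc7a5 came to 148 ± 5.21 FPKM, Slc1a5 to 132 ± 1.82, Slc2a1 to 75.3 ± 1.29 and Slc7a1 to 60.4 ± 1.27 (SD, n = 3). Slc38a2 moved little, to 104 ± 1.09 FPKM, and so stood above Slc2a1 and Slc7a1 on that scale. Slc16a1 has 1 isoform and stayed at 41.0 FPKM, above Slc38a1 at 32.9 FPKM and Slc38a10 at 31.4 FPKM. The leading carrier of each family was the same with both lengths. Which length describes these cells was not tested.

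**Figure D3:**
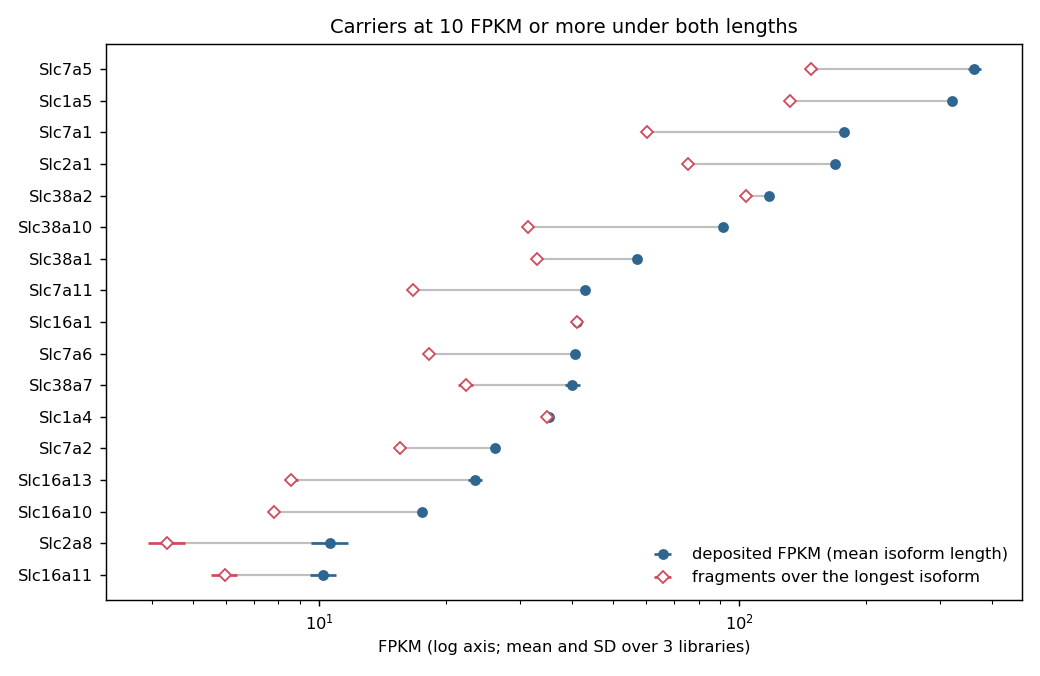
Mean FPKM and SD over 3 libraries, on a log axis, of the 17 carriers at 10 FPKM or more, as deposited (filled) and with fragments divided by the longest annotated isoform (open). Slc38a2, Slc16a1 and Slc1a4 hardly move, whereas Slc7a5 goes from 363 to 148 FPKM and Slc38a10 from 91.3 to 31.4 FPKM.

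The libraries differed little for these genes. The coefficient of variation over the libraries ran from 0.614% (Slc7a6) to 10.3% (Slc2a8) among members at 10 FPKM or more. Counting error alone gives 3.21% for Slc7a6 and 7.20% for Slc2a8. Of 30 members with at least 100 fragments in all, 1 was spread over the libraries by more than the 5% limit of counting error, or 3.33%, beside 10.1% of all genes with as many fragments. That gene was Slc7a5, whose level in library 1 was above both others and whose coefficient of variation was 3.51% where counting gives 1.16%. Members under 1 FPKM varied more, with 34.3% for Slc16a3 at 41 fragments, where counting alone gives 27.1%.

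Annotated transcript sequence shared with other genes was a small part of the higher members, and the reads themselves were not examined. At most 5% of the distinct 75-nt words of a gene's transcripts occurred in another gene for 16 of the 17 members at 10 FPKM or more. Slc7a2 was the exception with 5.40%, through Gm26584, which overlaps 635 of its exon bases on the opposite strand. Gm12868 overlaps 105 exon bases of Slc2a1 and Gm11769 overlaps 367 of Slc38a10, also on the opposite strand. The counting is not stated to use strand, so reads of these partners cannot be told apart where the exons overlap. Among lower members, Slc38a6 shared 30.8% of its words, with 159 genes in all, and Slc16a6 shared 20.2%, with 29 genes, of which Amz2 overlaps it on the opposite strand. Their levels are therefore less certain.

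Of 4 partner genes of the carriers, 3 passed 1 FPKM and 1, Slc3a1, did not, beside a share of 49.3% among protein-coding genes. Slc3a2, the heavy chain that anchors most light chains, was at 460.7, 449.6 and 450.8 FPKM in libraries 1, 2 and 3, a mean of 454 ± 6.07 FPKM (SD, n = 3). Its FPKM was 0.994 ± 0.0153 times the summed light chains and 1.25 ± 0.0267 times Slc7a5. With the longest isoforms these ratios were 0.865 ± 0.0135 and 1.11 ± 0.0237. Slc3a1, the heavy chain for cystine uptake in kidney, was at 0.187 ± 0.115 FPKM, and its partner Slc7a9 was at 0. Bsg was at 477 ± 11.0 FPKM, 11.6 ± 0.337 times Slc16a1. With the longest isoform Bsg was at 331 ± 7.66 FPKM, 8.06 ± 0.234 times Slc16a1. Emb, which encodes embigin, another partner of monocarboxylate carriers, was at 45.7 ± 0.304 FPKM.

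Genes next to transport were described as lists, to be read beside the 49.3% of protein-coding genes that passed 1 FPKM. Of 10 other transporters of the same or related substrates, 6 passed 1 FPKM. The highest was Slc6a6, the taurine carrier, at 161 ± 2.61 FPKM (SD, n = 3), and Slc5a12, a sodium-coupled lactate carrier of the kidney, was at 0. Slc5a1 and Slc5a2, the sodium-coupled glucose carriers of gut and kidney, rested on 5 and 3 fragments in all. Among 16 enzymes that use, make or lie close to the carried substrates, 11 passed 1 FPKM. Phgdh, which starts serine synthesis, was highest at 598 ± 2.56 FPKM, while Hk3 and Ldhc were at 0 in every library. All 8 regulators passed 1 FPKM, from Arrdc4, an arrestin that lowers glucose uptake, at 18.7 ± 0.634 FPKM to Atf4, the factor of the amino acid response, at 375 ± 6.09 FPKM.

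RefSeq windows of 250 bases before to 50 bases after the transcript start were found for 43 members, 24 of them at 1 FPKM or more. For the other 16, which include Slc7a5 and Slc1a5, no window was used here. A gene with several windows was given their mean CpG ratio, and a motif in any of them was counted for that gene. The observed over expected CpG ratio, which is high in CpG islands, was at least 0.6 in 14 of the 24 members at 1 FPKM or more (58.3%) and in 7 of the 19 below it (36.8%). Among all genes with a window the shares were 73.8% at 1 FPKM or more and 18.5% below it. Slc16a1 had the highest ratio, 1.06, followed by Slc38a2 at 1.03, whereas Slc7a11 had 0.271 at a level of 42.9 FPKM. Slc16a3 had a ratio of 0.933 and was below 1 FPKM in every library. Its 1 window lies inside the annotated gene, which begins upstream at chr11:120948480, and that earlier start was not examined.

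**Figure D4:**
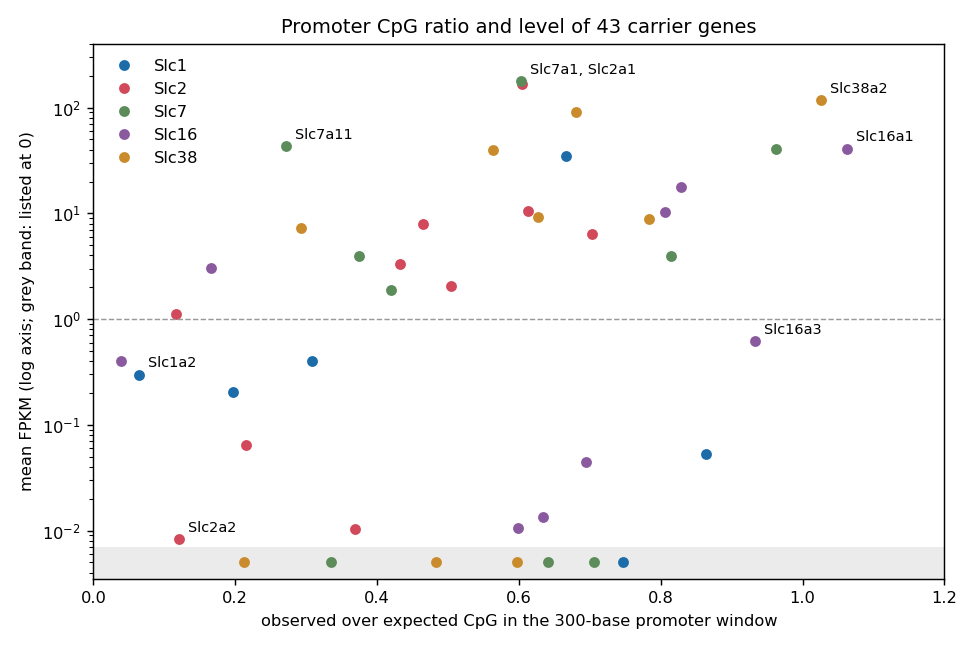
Mean FPKM on a log axis against the observed over expected CpG ratio of the 300-base promoter window. There is 1 point for each of the 43 carrier genes with a window, at the mean ratio over its windows, coloured by family. Slc16a3 at 0.933 and Slc1a1 at 0.864 lie below the dashed line at 1 FPKM, and Slc7a11 at 0.271 lies well above it.

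The letters GGGCGG were found on either strand in 17 of the 24 genes at 1 FPKM or more (70.8%) and in 10 of the 19 below it (52.6%). Among all genes with a window these shares were 70.4% and 25.6%. The TATA box TATAAA was found in 5 (20.8%) and 1 (5.26%) of these genes, beside 8.44% and 19.5% among all genes. The E box CACGTG, which is its own reverse complement, was found in 2 (8.33%) and 5 (26.3%), beside 11.9% and 6.12%. The element TGATGNAA was found in 3 (12.5%) and 0, beside 2.64% and 5.49%, and the 3 were Slc7a11, Slc1a4 and Slc7a7. Slc7a7 has 5 windows, and so more places for a match than a gene with 1 window. No match to one of these 4 motifs is in itself a match to another. With so few genes these shares are a description of the members.

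Several carriers lie within 500 kb of another member of their family. Whether other genes lie between them was not examined. Slc38a1 and Slc38a2 lie 44.5 kb apart on chromosome 15 in the same orientation, and Slc38a4 lies another 295 kb beyond Slc38a2. Their levels were 57.2, 117 and 7.23 FPKM. Slc16a11 and Slc16a13 lie 0.372 kb apart with their 3′ ends facing, on opposite strands of chromosome 11, at 10.2 and 23.5 FPKM. Slc7a7 and Slc7a8 lie 304 kb apart on chromosome 14 at 3.95 and 3.91 FPKM. Slc2a5 and Slc2a7, 4.80 kb apart on chromosome 4, were at 2.07 and 0.0644 FPKM. Slc7a9 and Slc7a10, 248 kb apart on chromosome 7, were both at 0.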

How the data were processed

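UMI-RNAseq of 3 libraries of NIH3T3 cells in 1 condition was used. According to the methods and the submitters' processing notes, tags were identified with UMI-tools (1.0.0), reads with a tag were mapped with HISAT2 (2.0.4), copies with the same place and tag were removed, and reads were counted per gene with HTSeq (0.6.1). The authors deposited FPKM values, 1 column per library. The genome build and annotation are not given in the sources used here. Unused columns of values numbered 0.

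No count model was fitted to the FPKM values. Fragments were recovered as FPKM times gene length times library total, with lengths as the mean over isoforms of GENCODE M21 (GRCm38). They were whole within 0.01 for all 59 members. Means, SDs and within-library ratios were computed in Python 3.11.15 with numpy 2.4.6, pandas 2.3.3 and scipy 1.17.1, and figures with matplotlib 3.10.9. Fixed pairs were tested by flipping the signs of the log2 ratios, an exact two-sided permutation test. Slc2a3 is at 0 in library 2, so without a pseudocount the pair Slc2a1 and Slc2a3 has no log2 ratio there. It is given with an exact Clopper-Pearson interval of the fragment split, which departs from the planned test. The spread over libraries was compared with counting error by a chi-square of the fragments at a 5% limit. Upper limits for members at 0 use 3 fragments over the libraries. Intervals and limits cover counting error only. Recovery of library totals and fragments and the chi-square were run on simulated fragments made with the same lengths. That run cannot show whether these lengths lie behind the deposited FPKM. The intervals, upper limits and ratios were not simulated.

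Members with values given in each library, as FPKM or fragments, are those at 10 FPKM or more, the leading and next carrier of each family and substrate group, and both genes of each pair, with a few others near 0 given by fragments. Members follow from the name pattern alone. The pattern, lists, substrate groups, pairs and promoter motifs were chosen with earlier results of these data known. Alternatives were leaving out each replicate, TPM scaling, the longest isoform, fragments not divided by length, the median over libraries, other FPKM limits, and pseudocounts of 1 and 0.1. Protein sequences were not used here. Values of 3 genes, 1 of them a member, are not reported here by name.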

Additional observations from a re-analysis of the deposited data

How the results depend on the processing

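With the longest isoform, the summed Slc16 carriers outside the proton-linked group fell below that group, from 64.9 and 42.1 FPKM to 29.1 and 41.7 FPKM. Other results were recomputed as 103 values for 12 results. Of these only the log2 ratios of the pairs have a direction, and 0 of them reversed. The order of members outside the pairs was not among these values. Counts were held to a change of 1.5 times, shares to the SD between libraries and log2 ratios to their direction alone, and 11 values went beyond these limits. The number of members at 1 FPKM or more was 32 without any one replicate, 29 with the longest isoform, 37 at a limit of 0.1 FPKM, 47 above 0 and 17 at a limit of 10 FPKM. It was not run on fragments not divided by length, where an FPKM limit has no meaning. The leading carrier of each family was the same gene in every setting run, and its share moved with the length. With the longest isoform the share was 78.8% for Slc1a5, 82.7% for Slc2a1, 58.0% for Slc16a1 and 51.5% for Slc38a2. With fragments not divided by length it was 72.7% for Slc1a5, 81.7% for Slc2a1, 39.4% for Slc7a5, 64.5% for Slc16a1 and 55.3% for Slc38a2. Summed over members of at least 1 FPKM, Slc1a5 had 90.1%. The carrier in the next place changed with the length to Slc2a10, Slc38a1 or, without any length, Slc16a10. The 54 recomputed log2 ratios of the pairs all kept their direction, the lowest being 1.03 for Slc38a2 over Slc38a1. Their size did move with the length: the log2 ratio of Slc1a5 over Slc1a4 was 1.92 with the longest isoform and 1.43 without any length, and that of Slc16a1 over Slc16a3 was 7.59 and 7.62. No paired analysis was possible because all libraries share 1 condition. Members with few fragments in all are limited by depth: 10 rested on 1 to 5 fragments.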

Other observations

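Beyond these families, 308 other genes of the Slc series were listed, of which 152 (49.4%) had a mean of at least 1 FPKM. Among the 20 highest Slc genes, 6 belong to the families described above. The highest of all was Slc3a2, the heavy chain, and several others belong to the Slc25 family, most of whose members act in mitochondria. Slc25a3, the mitochondrial phosphate carrier, was at 307 ± 2.99 FPKM (SD, n = 3). Slc25a39 was at 254 ± 1.67 FPKM, and Slc25a37, which brings iron into mitochondria, at 216 ± 3.62 FPKM. Slc25a4 and Slc25a5, which exchange ADP for ATP across the inner membrane, were at 134 ± 5.14 and 105 ± 3.87 FPKM. Slc39a14, a metal carrier, was at 114 ± 3.35 FPKM. Slc23a2, a vitamin C carrier, was at 88.8 ± 2.75 FPKM.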
